A study of Mus musculus with 8 samples.

Results

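The genes described here are 9 that tumor-associated macrophages (TAMs) can use to restrain or to help T cells and phagocytosis. They were chosen by name, as 5 inhibitory ligands and receptors (Cd274, Pdcd1lg2, Havcr2, Lgals9 and Sirpa) and 4 costimulatory molecules (Cd80, Cd86, Cd40 and Icosl), from the 23413 genes counted. All 9 were counted and all 9 passed the filter on low counts in each comparison. TAMs were sequenced from 8 mice, with 1 RNA-seq library for each. Male C57BL/6 mice, 8 to 10 weeks old, carried B16F10 tumors, which grow from a mouse melanoma cell line injected under the skin. The vehicle DMSO was given to 2 mice, thiostrepton, a thiopeptide antibiotic, was given intraperitoneally to 4 mice (IP) and by injection next to the tumor, at 20 mg/kg, to 2 mice (IS). Doses followed engraftment on days 6 and 12, and day 18 was the day of the sort, which took cells that were CD45+F4/80+CD11b+Gr-1−. The intraperitoneal doses used with this tumor were higher than the dose next to the tumor, and which of them the sequenced IP mice had, like the route of each DMSO mouse, is not given in the sources used here. Dose and route therefore cannot be told apart between IP and IS mice.

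T cells need a signal from CD28 beside that of their antigen receptor. CD80 and CD86 on antigen-presenting cells bind CD28, and bind the inhibitory receptor CTLA-4 more tightly. ICOS ligand (Icosl) binds ICOS, a relative of CD28, while CD40 receives CD40 ligand from helper T cells and signals through TRAF proteins to NF-kB. PD-L1 (Cd274) and PD-L2 (Pdcd1lg2) bind PD-1 and dampen the T cell; TIM-3 (Havcr2) is an inhibitory receptor of T cells and of myeloid cells, and galectin-9 (Lgals9), a lectin, is one of its ligands. SIRPα (Sirpa) is the macrophage receptor for CD47 and restrains phagocytosis.

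Between 14127506 and 17577466 counts per mouse fell on genes. Levels are CPM (counts scaled by TMM in edgeR to a fixed library total), and 3 counts, taken as the floor, were 0.169 to 0.218 CPM, which covers counting error only. The sorted cells carried the markers of their gate: the macrophage markers Emr1, which encodes F4/80, and Itgam, which encodes CD11b, were at 318 to 1020 CPM and 103 to 384 CPM. The IS libraries and IP mouse 1 stood apart. These libraries also carry the lowest numbers in the sample titles, and what the numbers stand for is not given. Both IS numbers lie below both DMSO numbers, so title order and treatment cannot be told apart between those groups. Across genes, log2 CPM correlated at 0.927 or more among the DMSO mice and IP mice 2 to 4, at 0.793 to 0.884 between IP mouse 1 and the others, and at 0.767 between the 2 IS mice. Over 9328 genes whose mean reached 5 CPM, 33.3% differed more than 2-fold between the 2 IS mice, against 5.36% between the 2 DMSO mice. Melanoma markers summed to 2986 CPM in IS mouse 1 and 461 to 1671 CPM in the other 7 mice.

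In GENCODE vM21 on GRCm38, the assembly called mm10, Cd274 (chr19:29367455-29388095) and Pdcd1lg2 (chr19:29410919-29471161) are protein-coding neighbours on the plus strand, 22823 bases apart. Cd80 (chr16:38455561-38496335, plus strand) and Cd86 (chr16:36603869-36666081, minus strand) share a chromosome but lie 1789479 bases apart. Cd40 is at chr2:165055627-165072948, Sirpa at chr2:129592835-129632228, Icosl at chr10:78069302-78083913 and Havcr2 at chr11:46454935-46481255, all on the plus strand. Lgals9 is on the minus strand at chr11:78962974-78984946. Of the 50-base stretches of the longest Cd274 transcript, 12.4% also occur in transcripts of other genes, 10.4% in 1 gene, AC119228.1, so reads from these stretches could have been split between genes and the Cd274 count is uncertain to that extent. The share was 0.71% for Havcr2 and 0.61% for Cd40, and none was found for the other 6 genes.

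The promoters of Cd274, Pdcd1lg2 and Cd80 are shown because Cd274 and Pdcd1lg2 are neighbours whose levels lay far apart, and because Cd80 was the gene of the 9 that passed the criterion between the routes. Each line holds the 250 bases before the start site in RefSeq's annotation of GRCm38.p6, on the gene's strand, at chr19:29367188-29367437, chr19:29410669-29410918 and chr16:38458683-38458932, all on the plus strand. The Cd80 window lies inside the gene's span in GENCODE, which begins further upstream. Capitals mark matches, on either strand, to short forms of binding motifs.
Cd274: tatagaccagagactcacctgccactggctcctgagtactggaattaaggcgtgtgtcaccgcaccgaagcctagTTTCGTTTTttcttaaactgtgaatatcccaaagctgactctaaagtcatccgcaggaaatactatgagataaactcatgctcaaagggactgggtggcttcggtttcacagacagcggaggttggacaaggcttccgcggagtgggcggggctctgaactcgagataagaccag
Pdcd1lg2: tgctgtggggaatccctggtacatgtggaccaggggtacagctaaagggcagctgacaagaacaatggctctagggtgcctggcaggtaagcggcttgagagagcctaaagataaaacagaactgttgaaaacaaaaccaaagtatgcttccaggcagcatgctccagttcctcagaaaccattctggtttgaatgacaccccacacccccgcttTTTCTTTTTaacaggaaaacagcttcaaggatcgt
Cd80: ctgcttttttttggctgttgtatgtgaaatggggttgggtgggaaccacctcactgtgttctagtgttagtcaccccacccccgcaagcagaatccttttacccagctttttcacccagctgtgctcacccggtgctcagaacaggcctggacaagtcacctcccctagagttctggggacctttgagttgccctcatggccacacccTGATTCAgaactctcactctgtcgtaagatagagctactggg
The capitals in Cd274 span bases −175 to −167 from the start site, and those in Pdcd1lg2 −35 to −27. Both match AAANNGAAA, a short form of the interferon-stimulated response element (ISRE). Those in Cd80 (−42 to −36) read TGATTCA and match TGANTCA, a loose form of the AP-1 motif that takes any base at its centre. None of these matches overlaps a match to another motif searched. In windows of 300 bases, which reach 50 bases past the start site, ISRE letters stood in Cd274, Pdcd1lg2, Cd80 and Lgals9, that is in 4 of the 6 genes with a RefSeq promoter here, and in 10.6% of 32851 promoters. AP-1 letters stood in Cd80 and Havcr2 and in 7.81% of all promoters. No match to GGNNTTTCC, a short form of the NF-kB motif found in 5.82% of promoters, or to TTCNNNGAA, the interferon-gamma activated site found in 8.3%, was found in the 6 windows. A match of letters is a description and does not show binding.

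Levels between genes were compared as mean CPM per kilobase of the longest protein-coding transcript. Lgals9, at 256, 290 and 299 CPM per kilobase in the DMSO, IP and IS mice, and Sirpa, at 243, 260 and 230 CPM per kilobase, stood far above the other 7 genes in every group. Cd86, Cd274, Havcr2 and Cd40 formed a middle group between 15.9 and 60.8 CPM per kilobase. Icosl at 2.79 to 3.35, Cd80 at 0.996 to 3.04 and Pdcd1lg2 at 0.535 to 1.09 CPM per kilobase were lowest. In every mouse these 3 tiers stayed apart, at 139 or more, 12.1 to 88.0 and 4.66 CPM per kilobase or less. Inside the middle and low tiers the order changed between groups: Cd86 had the highest mean of the middle tier in the DMSO mice, Havcr2 in the IP mice and Cd274 in the IS mice. Neighbours within a tier overlapped over the mice of a group, except Havcr2 above Cd40 and Cd80 above Pdcd1lg2 in the DMSO mice, Icosl above Cd80 in the IP mice and Icosl above Pdcd1lg2 in the IS mice.

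Cd274 was at 151 and 76.4 CPM in DMSO mice 1 and 2, at 64.2, 86.2, 137 and 149 CPM in IP mice 1 to 4 and at 122 and 319 CPM in IS mice 1 and 2. Its group means were 114 ± 52.6 CPM (SD, n = 2) with DMSO, 109 ± 40.3 CPM (n = 4) with IP and 220.4 ± 139 CPM (n = 2) with IS. IS mouse 2 was the highest of the 8 mice, while IS mouse 1 lay between the 2 DMSO mice, so the groups overlapped. Pdcd1lg2, encoding the second ligand of PD-1, was at 17 and 19 counts in DMSO mice 1 and 2, at 3, 7, 34 and 20 counts in IP mice 1 to 4 and at 1 and 51 counts in IS mice 1 and 2. These counts were few: IS mouse 1 lay under the floor, IP mouse 1 lay on it, and IS mouse 2 held the most. Cd274 exceeded Pdcd1lg2 in every mouse, with a log2 ratio of counts between 6.09 and 10.24.

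Havcr2 was at 68.8 and 61.4 CPM in DMSO mice 1 and 2, at 56.1, 102, 100.3 and 118 CPM in IP mice 1 to 4 and at 44.9 and 131 CPM in IS mice 1 and 2. Of the IP mice, 3 lay above both DMSO mice and 1 below, and the IS mice held the lowest and the highest of all 8 values. Its ligand gene Lgals9 was at 451 and 359.9 CPM in DMSO mice 1 and 2, at 553, 423, 501 and 363 CPM in IP mice 1 to 4 and at 520.0 and 428 CPM in IS mice 1 and 2. All 3 groups overlapped, and the 2 IS mice both lay inside the range of the IP mice. Sirpa was at 988 and 945 CPM in DMSO mice 1 and 2, at 943, 1016, 968 and 1216 CPM in IP mice 1 to 4 and at 553 and 1282 CPM in IS mice 1 and 2. IS mouse 1 had the lowest level and IS mouse 2 the highest, and the other 6 mice lay between them, with IP mouse 4 nearest to IS mouse 2.

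Cd80 was at 6.44 and 3.39 CPM in DMSO mice 1 and 2, at 3.19, 2.68, 3.22 and 3.56 CPM in IP mice 1 to 4 and at 6.26 and 13.0 CPM in IS mice 1 and 2. The 4 IP mice lay close together and below both IS mice, and the DMSO mice spanned the gap, with DMSO mouse 1 slightly above IS mouse 1. Cd86 was at 125 and 90.0 CPM in DMSO mice 1 and 2, at 95.6, 49.7, 74.8 and 122 CPM in IP mice 1 to 4 and at 90.6 and 209 CPM in IS mice 1 and 2. It overlapped in all 3 groups, and IS mouse 2 was again the highest. Cd40 was at 61.9 and 51.7 CPM in DMSO mice 1 and 2, at 47.3, 36.1, 68.9 and 38.1 CPM in IP mice 1 to 4 and at 78.4 and 76.7 CPM in IS mice 1 and 2. Both IS mice lay above all 6 other mice and differed little from each other. Icosl was at 10.9 and 5.11 CPM in DMSO mice 1 and 2, at 9.30, 6.63, 8.69 and 13.1 CPM in IP mice 1 to 4 and at 7.20 and 8.52 CPM in IS mice 1 and 2, and both IS mice lay between the 2 DMSO mice.

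**Figure D1:**
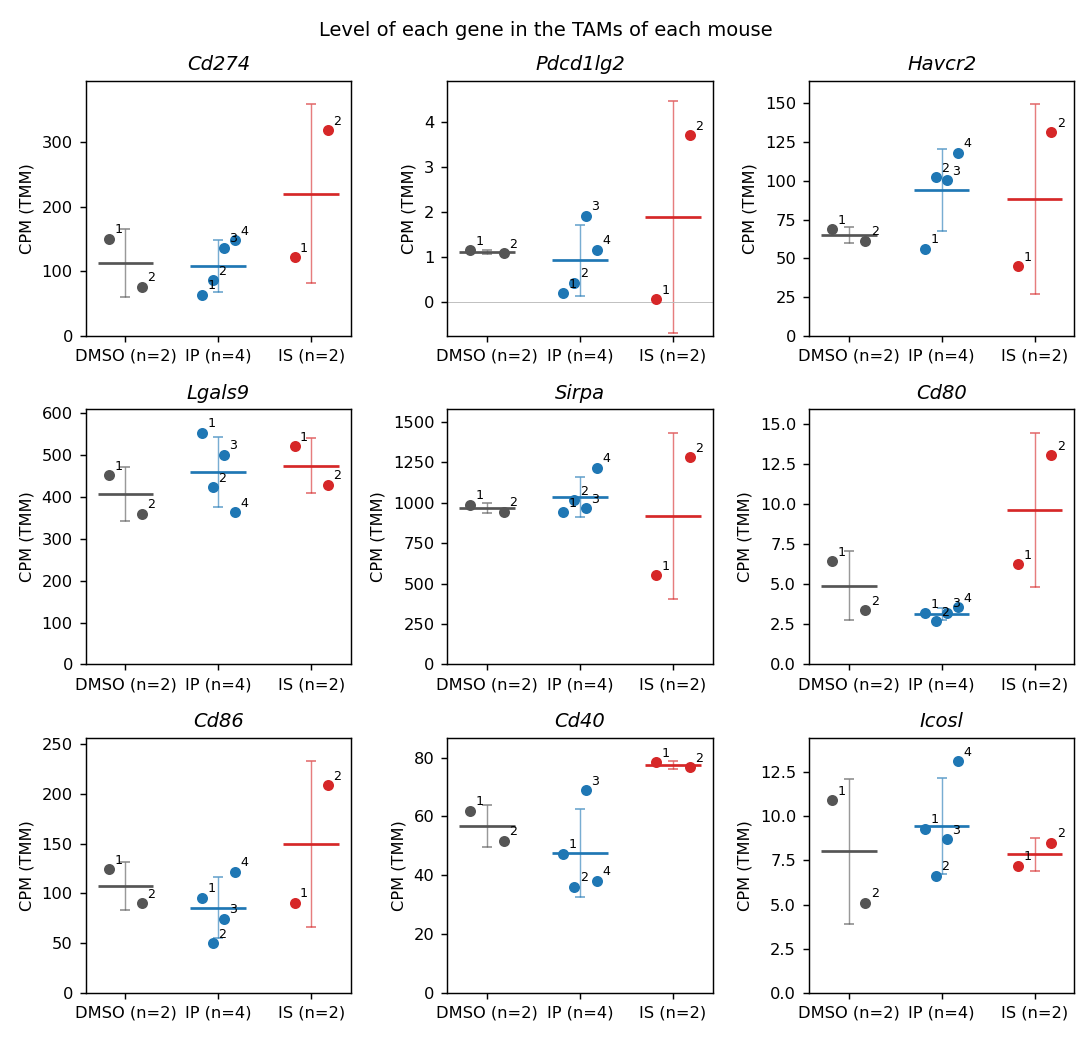
CPM of each of the 9 genes (linear axes, 1 panel per gene) in the TAMs of each mouse, numbered within its group. Horizontal lines are group means and thin bars their SD (DMSO n = 2, IP n = 4, IS n = 2). IS mouse 2 is the highest point for Cd274, Pdcd1lg2, Havcr2, Sirpa, Cd80 and Cd86, and both IS mice are above the rest only for Cd40.

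The study asked how thiostrepton by either route changes TAM expression against DMSO. The study's criterion asked for a change of 2-fold or more and an unadjusted p under 0.05. By it, 0 of the 9 genes passed in IP against DMSO mice, where 2% of the 12174 genes tested did. In the same way 0 of 9 passed in IS against DMSO mice, where 5.06% of 11680 genes did. Both comparisons use the same 2 DMSO mice. No gene of the 9 had an unadjusted p under 0.05 in either, in edgeR's quasi-likelihood test or in DESeq2. Over all genes no adjusted p was under 0.05 either, while 418 and 632 genes had an unadjusted p under 0.05 in edgeR and 19 and 107 an adjusted p under 0.05 in DESeq2.

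In IP against DMSO mice the log2 fold changes were small, with a median of -0.06 over the 9 genes, 4 above 0 and 5 below, against a median of 0.02 over all genes. The smallest p was that of Havcr2, with a log2 fold change of 0.53 ± 0.32 (SE) and an edgeR adjusted p of 0.98. Cd80 stood at -0.64 ± 0.45 and Cd274 at -0.06 ± 0.40, with a 95% interval of -0.98 to 0.85 that leaves room for nearly 2-fold in either direction. The interval was narrowest for Sirpa, -0.41 to 0.59, and widest for Pdcd1lg2, -2.41 to 1.87. The IP and DMSO mice overlapped for all 9 genes (0 of 9 apart), where they lay apart for 14.1% of all genes tested.

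In IS against DMSO mice 7 of the 9 log2 fold changes were above 0 and 2 below, with a median of 0.42 against 0.02 over all genes. Cd80 at 0.95 ± 0.75 and Cd274 at 0.94 ± 0.58 were largest, both with an edgeR adjusted p of 1. The groups lay apart for 1 of the 9 genes, Cd40, and for 34.3% of all genes, and the Cd40 log2 fold change was 0.42 ± 0.31 (95% interval -0.35 to 1.20, edgeR adjusted p = 1). Sirpa at -0.10 ± 0.46 and Icosl at -0.05 ± 0.68 stood near 0, with intervals of -1.23 to 1.03 and -1.73 to 1.63. Without IS mouse 1, the lone IS mouse was assumed to vary like the DMSO mice. The log2 fold change was then 1.46 for Cd274, 1.39 for Cd80 and 1.69 for Pdcd1lg2. Without IS mouse 2 it was -3.96 for Pdcd1lg2, 0.05 for Cd274, 0.29 for Cd80 and -0.30 for Cd86.

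In IS against IP mice, whose dose and route both differed, 1 of the 9 genes passed the criterion, where 7.05% of 12206 genes did. Cd80 was 3.05-fold higher in IS than in IP mice, 9.64 ± 4.79 CPM (SD, n = 2) against 3.16 ± 0.364 CPM (n = 4), a log2 fold change of 1.61 ± 0.56 (95% interval 0.33 to 2.89, edgeR adjusted p = 0.481). Of the 12206 genes, 0 had an adjusted p under 0.05 in edgeR, 1049 an unadjusted p under 0.05 and 234 an adjusted p under 0.05 in DESeq2. The call was lost without IP mouse 2 (log2 fold change 1.53), IP mouse 3 (1.59) or IS mouse 2 (0.98), and with the replicate block (1.61, where Cd274 passed at 1.39), and the level rests on 44 to 61 counts in the IP mice and 93 and 179 in the IS mice. Cd40 and Cd80 were the 2 of 9 genes whose groups did not overlap, against 18.5% of all genes tested.

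Cd274 at 1.02 ± 0.45 (edgeR adjusted p = 0.592), Cd86 at 0.81 ± 0.43 (adjusted p = 0.664) and Cd40 at 0.70 ± 0.32 (adjusted p = 0.601) also had log2 fold changes above 0 in IS against IP mice, and none passed the criterion. The 4 costimulatory molecules had a median of 0.76 and the 5 inhibitory genes one of 0.05, beside 0.02 over all genes. Against DMSO these medians were 0.44 and 0.42 in the IS mice and -0.30 and 0.09 in the IP mice. In IS against IP mice the classes were also mixed, as the inhibitory Cd274 and Pdcd1lg2, both at 1.02, stood above Cd86 and Cd40. Lgals9 stood at 0.05 ± 0.26 (-0.05 when scaled by library size alone), with an interval of -0.55 to 0.64, Havcr2 at -0.10 ± 0.46, Sirpa at -0.17 ± 0.34 and Icosl at -0.26 ± 0.48. Pdcd1lg2, at 1.02 ± 1.41, could have been lower or higher, with an interval of -2.20 to 4.24. Without IS mouse 1 the log2 fold change was 2.04 for Cd80, 1.55 for Cd274 and 1.29 for Cd86. Without IS mouse 2 it was 0.98 for Cd80, 0.16 for Cd274 and 0.08 for Cd86. Without IP mouse 4, Cd80 (1.67) and Cd274 (1.20) passed the criterion, where 648 of 11974 genes did.

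**Figure D2:**
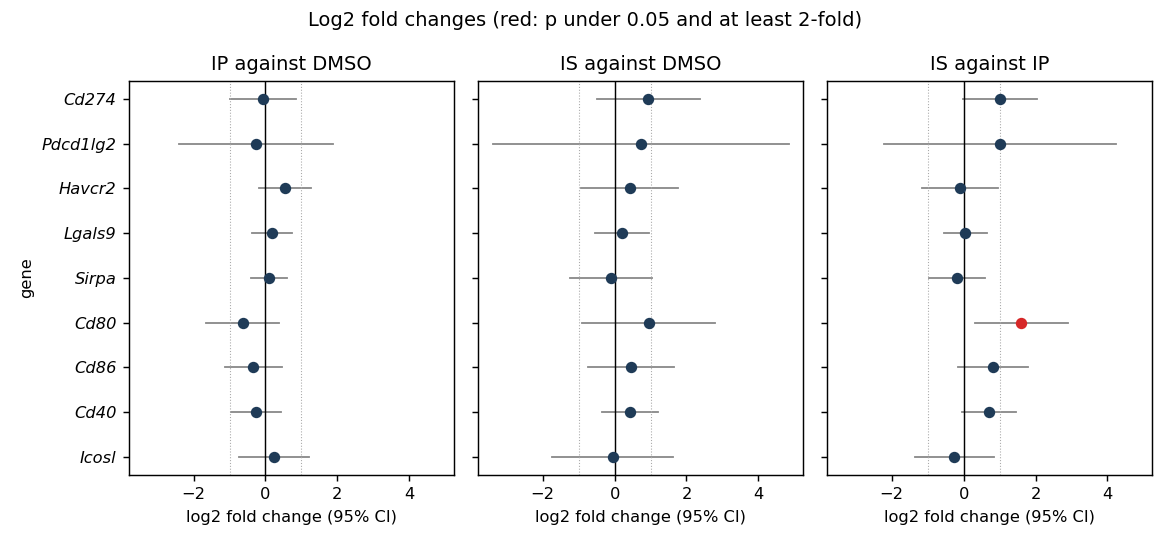
Log2 fold change (point) with its 95% interval (line) of the 9 genes in 3 comparisons, from edgeR's quasi-likelihood fit. The dotted lines mark 2-fold in either direction, red marks a gene past the study's criterion, and only Cd80 in IS against IP mice is red, at 1.61 with an interval of 0.33 to 2.89.

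The spread between the 2 IS mice was wide for most of these genes. IS mouse 2 exceeded IS mouse 1 for 7 of the 9 genes, by a median of 1.20 on the log2 scale over the 9, and 6 of 9 (66.7%) differed more than 2-fold, where 33.3% of all genes whose mean reached 5 CPM did. In the IS mice the difference was 1.55 for Havcr2, 1.38 for Cd274, 1.21 for Sirpa, 1.20 for Cd86 and 1.04 for Cd80. Pdcd1lg2 had 1 count in IS mouse 1 and 51 in IS mouse 2. Cd40 at -0.03, Icosl at 0.24 and Lgals9 at -0.28 differed less. Between the DMSO mice, mouse 1 was the higher for all 9 genes, by a median of 0.33, and 1 of 9 (Icosl) differed more than 2-fold, where 5.36% of all genes did. Of 12 macrophage markers, 7 were higher in IS mouse 2, such as Csf1r (1128 against 353 CPM) and Emr1 (1020 against 360 CPM), and 5 were lower, such as Cd68 (2877 against 3317 CPM), and the list summed to 34191 and 31670 CPM in IS mice 2 and 1. The part that tumor cells or other cell types had in these differences was not tested. In bulk RNA, fewer cells of a type and less RNA per cell cannot be told apart.

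**Figure D3:**
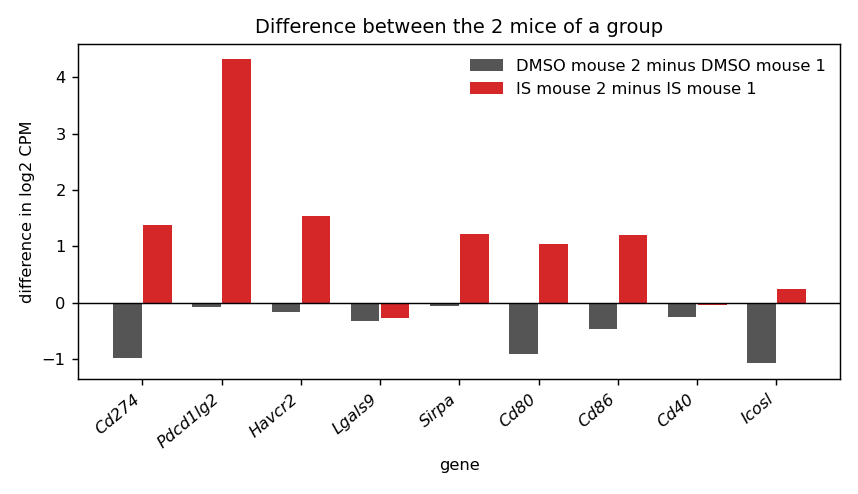
Difference in log2 CPM between mouse 2 and mouse 1 of the same group for each of the 9 genes (grey, DMSO; red, IS). Grey bars all lie below 0, and red bars pass 1 for 6 genes, with Pdcd1lg2, which had 1 count in IS mouse 1, at 4.32.

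A ratio of 2 genes within a mouse does not depend on scaling between libraries. The exact two-sided permutation test over mice has a smallest p of 0.133 for 4 mice against 2 and of 0.333 for 2 against 2. Cd80 to Cd86, the 2 ligands of CD28, had a log2 ratio of -3.85 and -4.00 in IS mice 1 and 2, between -5.09 and -4.20 in the IP mice and -4.27 and -4.72 in the DMSO mice. Both IS mice lay above the other 6, with a mean 0.75 higher than in the IP mice (exact permutation p = 0.133, the smallest possible with n = 2 and 4) and 0.57 higher than in the DMSO mice (exact permutation p = 0.333, the smallest possible). Cd274 to Cd86 was 0.43 and 0.61 in the IS mice, 0.28 and -0.24 in the DMSO mice and -0.57 to 0.87 in the IP mice, and the IP range held all the others. Adjusted over the 9 comparisons, 3 for each ratio, every p was 0.75 or more.

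**Figure D4:**
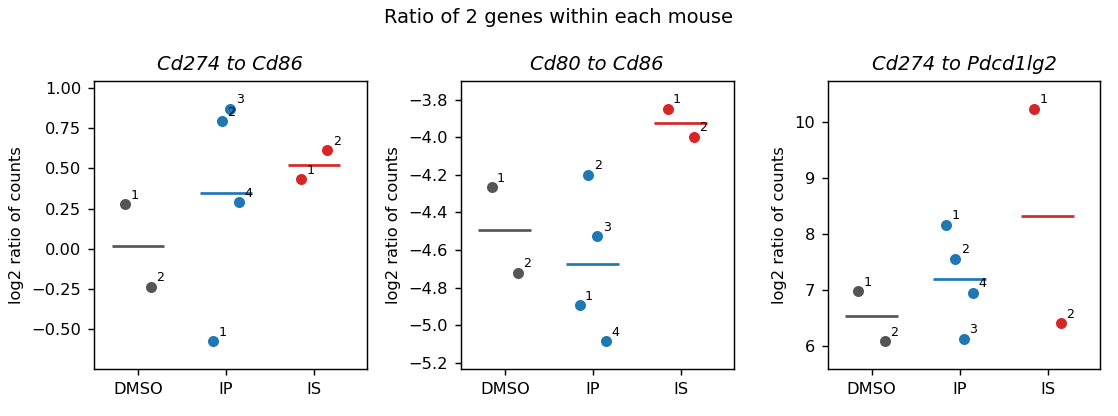
Log2 ratio of the counts of 2 genes in each mouse, numbered within its group, with horizontal lines at the group means. The 2 IS mice are the highest for Cd80 to Cd86, and IS mouse 1, with 1 count of Pdcd1lg2, is the highest for Cd274 to Pdcd1lg2 at 10.24.

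The receptors on the T cell side were nearly absent from these libraries, apart from Cd28. Ctla4, Icos, Cd40lg and Pdcd1 were at 0 to 1.42 CPM in every mouse, whereas Cd28 was at 8.21 and 8.61 CPM in DMSO mice 1 and 2, at 10.1, 14.5, 4.68 and 11.8 CPM in IP mice 1 to 4 and at 7.47 and 9.54 CPM in IS mice 1 and 2. Cd47, the ligand of SIRPα, was at 338 to 439 CPM in all 8 mice. Of 12 partners of the 9 genes, 8 were tested in IP against DMSO mice and 7 in each comparison with IS mice. In each comparison 0 passed the criterion, where 2%, 5.06% and 7.05% of all genes did. So few genes cannot show a difference from those shares. T cell markers, 10 of 10 in the table, summed to 4.52 to 13.8 CPM in the IP mice, 9.19 and 19.1 CPM in the DMSO mice and 16.0 and 29.8 CPM in the IS mice.

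Other genes of these pathways were taken from 8 lists of 92 genes, 90 of them in the table. In IP against DMSO mice 1 of the 79 tested (1.27%) passed the criterion, in IS against DMSO mice 4 of 78 (5.13%) and in IS against IP mice 4 of 77 (5.19%), all higher, with 2%, 5.06% and 7.05% over all genes. In IP mice the gene was Vsig4, a B7-related complement receptor that dampens T cells, at 0.746 and 4.02 CPM in DMSO mice 1 and 2, at 7.84, 10.6, 7.39 and 7.99 CPM in IP mice 1 to 4 and at 0 and 4.37 CPM in IS mice 1 and 2. Its log2 fold change against DMSO was 1.81 ± 0.63 (edgeR adjusted p = 0.98), and the 4 IP mice lay above both DMSO mice. Without DMSO mouse 1 it stood at 1.07 and the call was lost, as it was with all 3 groups in 1 fit (1.82).

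In IS against DMSO mice, Tnfsf9, encoding the costimulatory ligand of 4-1BB, was at 42.7 and 34.5 CPM in DMSO mice 1 and 2, at 137, 24.99, 24.4 and 28.8 CPM in IP mice 1 to 4 and at 98.4 and 122 CPM in IS mice 1 and 2. It was 1 of 7 TNF superfamily costimulators tested to pass, beside 5.06% of all genes in this comparison. The log2 fold change of Tnfsf9 was 1.49 ± 0.33 (edgeR adjusted p = 0.747). IP mouse 1 was the highest of all 8 mice, and without DMSO mouse 2 the call was lost, at a log2 fold change of 1.33. Irf1, an interferon-induced transcription factor that drives Cd274, was at 86.2 and 59.2 CPM in DMSO mice 1 and 2, at 126, 35.3, 152 and 43.6 CPM in IP mice 1 to 4 and at 109.5 and 277 CPM in IS mice 1 and 2, the 1 of 18 PD-L1 regulators to pass (1.39 ± 0.52, edgeR adjusted p = 0.887). Its call was lost without IS mouse 2, at 0.53, without DMSO mouse 2, at 1.13, when scaled by library size alone, at 1.23, and with all 3 groups in 1 fit, at 1.41. Sirpb1a, an activating relative of Sirpa in a family of near-identical genes, which leaves its count uncertain, was the 1 of 8 SIRPA signalling genes to pass, at 1.51 ± 0.54 (edgeR adjusted p = 0.846), and lost the call without either DMSO mouse (2.17 and 1.04).

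CD40 signalling genes held 3 of the 4 calls in IS against IP mice, 3 of 11 tested, beside 7.05% of all genes. The 8 lists together stood at 5.19%, below that share. The median log2 fold change of the CD40 list was 0.68, against 0.02 over all genes. Nfkb2, the NF-kB subunit of the noncanonical pathway below CD40, was at 23.7 and 17.9 CPM in DMSO mice 1 and 2, at 17.3, 13.9, 15.5 and 19.3 CPM in IP mice 1 to 4 and at 22.9 and 48.3 CPM in IS mice 1 and 2, and both IS mice lay above the IP mice (1.11 ± 0.38, edgeR adjusted p = 0.459). Tnfaip3, encoding A20, which switches NF-kB signalling off, stood at 1.75 ± 0.65 (edgeR adjusted p = 0.497) and Birc3, encoding cIAP2, an E3 ligase of the same pathway, at 1.27 ± 0.50 (adjusted p = 0.538), both with overlapping groups. IS mouse 2 held 568 and 112 CPM of Tnfaip3 and Birc3, the highest of the 8 mice, and IS mouse 1 120.3 and 27.0 CPM. Without IS mouse 2 none of the 3 passed, at 0.47 for Nfkb2, 0.23 for Tnfaip3 and -0.10 for Birc3, and none passed without IP mouse 2 (1.03, 1.51 and 1.18) or IP mouse 3 (1.05, 1.52 and 1.33). Birc3 also lost its call without IP mouse 4, at 1.15. Tnfaip3 also passed in IS against DMSO mice, at 2.75 ± 0.80 (edgeR adjusted p = 0.747). Siglece, an inhibitory receptor of myeloid cells, was the 1 of 13 on its list to pass between the routes, at 1.64 ± 0.54 (edgeR adjusted p = 0.445), and lost the call without IS mouse 1, at 0.89.

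**Figure D5:**
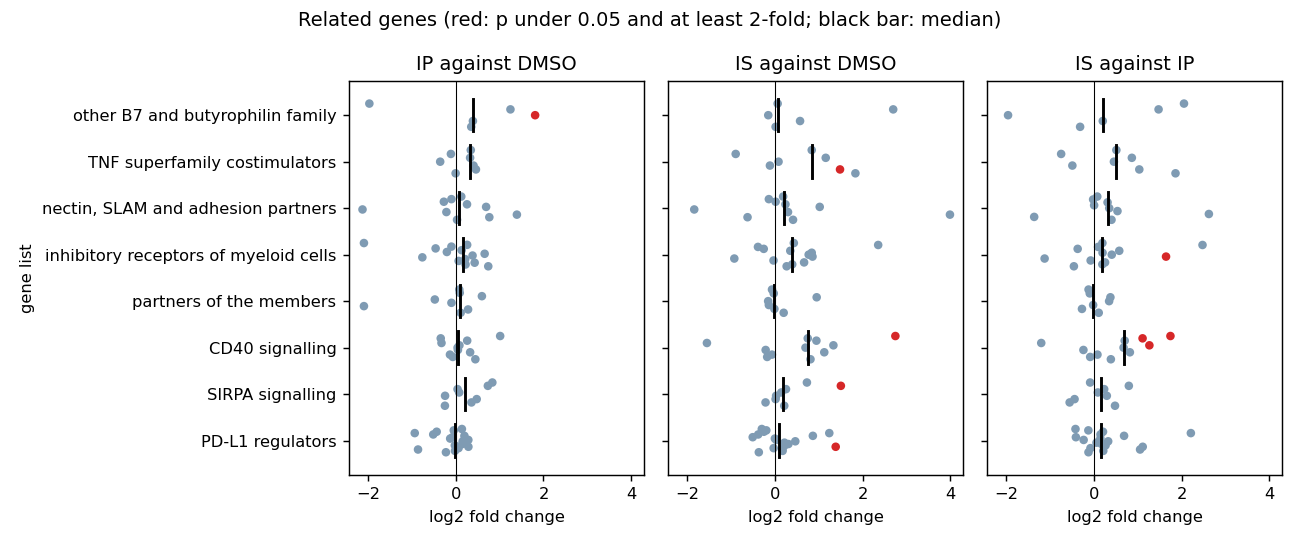
Log2 fold changes of the genes tested in 8 lists of related genes, in 3 comparisons from edgeR's fit (1 point per gene, black bar at the list's median, red for genes past the study's criterion). Red points are Vsig4 in IP against DMSO, Tnfsf9, Tnfaip3, Sirpb1a and Irf1 in IS against DMSO, and Siglece, Tnfaip3, Birc3 and Nfkb2 in IS against IP.

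The 2 genes nearest to each of the 9 in pattern were sought among 9328 genes, by the root mean square difference of centred log2 CPM over the 8 mice. Nfkb2 was the nearest to Cd80, at a distance of 0.24, and 4930430F08Rik followed at 0.26. Alpk1 (0.17) and Pigh (0.22) were nearest to Cd274, Mthfd1l (0.21) and Safb (0.22) to Cd86, and Psme2 and Itga4 (both 0.14) to Cd40. Nlrc4 (0.44) and Lancl2 (0.59) were nearest to Pdcd1lg2, whose few counts leave its pattern loose. Trmt10b and Kdm4b (both 0.20) were nearest to Icosl, Rnf103 and Fgd4 (both 0.19) to Havcr2, Exosc5 (0.07) and 4930453N24Rik (0.10) to Lgals9, and Tbc1d1 and Eya3 (both 0.08) to Sirpa. None of these is another of the 9 genes, and the likeness is a description over mice of 3 groups.

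Summed levels of the monocyte, neutrophil and NK cell markers were higher in both IS mice than in the other 6, beside the results for Cd80 and Cd40. Monocyte markers, 8 of 8 in the table, summed to 371 and 410 CPM in the IS mice, 21.8 to 200.4 CPM in the IP mice and 88.9 and 100.1 CPM in the DMSO mice. Most of this sum in the IS mice and IP mouse 1 was 1 gene, the early-response gene Nr4a1, at 263 and 273 CPM in the IS mice, 165 CPM in IP mouse 1 and 5.02 to 15.2 CPM in the other 5 mice. Ccr2, a defining monocyte gene, was at 60.7 and 76.7 CPM in the IS mice, 7.30 to 20.1 CPM in the IP mice and 59.9 and 79.2 CPM in the DMSO mice. Dendritic cell markers, 12 of 12, summed to 48.2 and 16.2 CPM in the IS mice, 8.98 to 16.4 CPM in the IP mice and 22.0 and 8.27 CPM in the DMSO mice, so that IS mouse 2 lay within the range of the other 6, and the defining gene Flt3 was at 0 to 0.218 CPM. Neutrophil markers, 9 of 10 in the table, summed to 231 and 399 CPM against 84.4 to 162 CPM in the other 6 mice, and Cxcr2 made up 171 CPM of the sum in IS mouse 1. NK cell markers summed to 37.2 and 21.9 CPM in the IS mice against 0.182 to 14.8 CPM in the others. Of these, Gzma (14.9 and 6.92 CPM) and Nkg7 (8.34 and 11.4 CPM) stood above the other 6 mice in both IS mice 1 and 2. The remaining markers, Ncr1, Klrb1c, Klrd1, Gzmb, Prf1 and Eomes, were at 0.0728 CPM or less in at least 1 IS mouse. Fibroblast markers reached at most 1.23 CPM and endothelial markers 8.63 CPM. The part of these cells in the levels of Cd80 and Cd40 was not tested.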

How the data were processed

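RNA-seq of TAMs from 8 mice was used, grouped as DMSO, IP and IS by the sample labels. The authors aligned reads to mm10 and counted them per gene with bowtie2 and RSEM; the submitters' processing notes also list TopHat2. They deposited raw counts per gene as whole numbers, without normalization; annotation and strandedness are not given in the sources used here. Pairs of groups were fitted separately in edgeR 4.0.16 (R 4.3.3): filterByExpr (minimum count 10, minimum total 15), TMM, estimateDisp and the two-sided quasi-likelihood test, with Benjamini-Hochberg adjustment over all genes tested. SEs are the log2 fold change divided by the root of F. Genes named are the 9, the 2 nearest in pattern to each, and called genes of the related lists with partners of the 9. These genes and lists were chosen with earlier results of these data known. Ratios used counts plus 0.5. Alternatives were no filter, 1 CPM in 2 samples, RLE, library size only, the likelihood ratio test, DESeq2 1.42.0, all 3 groups in 1 fit, a replicate block and leaving out each mouse. A crossed block, and all alternatives for related genes, were chosen after seeing the data. The procedure was tested on simulated data. Same-numbered mice did not deviate together, so no block was used.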

Additional observations from a re-analysis of the deposited data

Results flagged for a closer look

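Cd80 passed the criterion in IS against IP mice, at a log2 fold change of 1.61 (edgeR adjusted p = 0.481, with the unadjusted p under 0.05). It was 1 of the 9 genes to pass, beside 7.05% of all genes tested. The fit compares these groups directly, but dose and route cannot be told apart between them. Both IS mice lay above all 4 IP mice. DMSO mouse 1 lay above IS mouse 1, and neither route passed the criterion against the DMSO mice. The call was lost without IP mouse 2, IP mouse 3 or IS mouse 2, where the log2 fold change was 1.53, 1.59 and 0.98, and with the replicate block, at 1.61.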

How the results depend on the processing

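Of the log2 fold changes of the 9 genes under the alternatives, 121 of 126 in IP against DMSO, 104 of 117 in IS against DMSO and 105 of 125 in IS against IP kept their direction and their side of the criterion. The number of the 9 that passed stayed at 0 in IP against DMSO under all alternatives run. In IS against DMSO it was 0 under the alternatives that kept all mice. In IS against IP it was 0 to 2 when 1 IP mouse was left out, where 632 to 922 of all genes passed. It was 2 there with no filter, the likelihood ratio test or DESeq2, where Cd274 passed beside Cd80. Over all genes, 1173, 1101 and 1017 passed in those 3 fits. In IP against DMSO, 364 of all genes passed with no filter, 352 by the likelihood ratio test and 335 by DESeq2. With all 3 groups in 1 fit 160 passed there, and 185 to 361 when 1 IP mouse was left out. Leaving out an IS mouse raised the number of all genes that passed in both comparisons with IS mice. A higher count of related genes in those fits therefore does not by itself set these genes apart. In IP against DMSO, related genes that passed were 2 with no filter or the likelihood ratio test, 3 by DESeq2, 0 with all 3 groups in 1 fit and 1 to 5 when 1 mouse was left out. They were 2 to 21 when 1 mouse was left out in IS against DMSO and 1 to 11 in IS against IP, where leaving out an IS mouse left 1 library assumed to vary like the other group.

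Leaving out 1 mouse turned the direction of several genes. In IP against DMSO the log2 fold change ran from -0.47 to 0.51 for Cd274, -0.21 to 0.88 for Icosl and -0.91 to 0.0639 for Pdcd1lg2. In IS against DMSO it ran from -3.96 to 1.69 for Pdcd1lg2, -0.30 to 0.93 for Cd86, -0.60 to 0.99 for Havcr2, -0.51 to 0.58 for Icosl and -0.87 to 0.38 for Sirpa. In IS against IP it ran from -3.65 to 1.99 for Pdcd1lg2, -1.07 to 0.48 for Havcr2, -0.10 to 0.17 for Lgals9, -0.91 to 0.31 for Sirpa and -0.10 to 1.953 for Birc3. The ratio of Cd274 to Cd86 in IS against IP ran from -0.13 to 0.35, that of Cd80 to Cd86 in IP against DMSO from -0.41 to 0.0441, and that of Cd274 to Pdcd1lg2 from -0.13 to 3.70 in IS against DMSO and -0.80 to 3.04 in IS against IP. The cause was not tested beyond the mouse left out.

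Scaled by library size alone, the median of all genes moved by -0.15 in IS against DMSO and -0.11 in IS against IP, Lgals9 in IS against IP turned to -0.0502, and 196 genes were called higher and 429 lower in IS against DMSO, against 268 and 323. Irf1 in IS against DMSO lost its call at this scaling, at 1.23. Correlations of the deviations of same-numbered mice lay between -0.187 and 0.169, so the numbers do not pair the mice. The replicate block rests on IP mice 1 and 2 in IP against DMSO, where 5 related genes passed beside 291 of all 11817 genes. With the block, Pdcd1lg2 stood at -0.80 and Icosl at 0.0405 in IS against DMSO. Lgals9 stood at -0.0552 and Havcr2 at 0.0012 in IS against IP. Cd80 in IS against IP kept 1.61 but lost its call, as did Siglece, Birc3, Nfkb2 and Tnfaip3, while Cd274 passed at 1.39. In 1 fit of all 3 groups, Tnfsf9, Sirpb1a and Irf1 lost their calls in IS against DMSO. Crossing the numbers in IS against DMSO gave 475 genes called, against 429 with the block and 591 without, with Pdcd1lg2 at -0.78 and Icosl at 0.0408. Counts limit Pdcd1lg2, with 1 to 51 per mouse, and Cd80, with 44 to 179, and 2 mice per group limit every comparison with DMSO or IS.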
